A study of Mus musculus with 12 samples.

Results

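The genes described here encode collagens, laminins, nidogens, perlecan (Hspg2), fibronectin (Fn1) and the collagen-binding glycoprotein Sparc. They were chosen by symbol (Col, number, a, number; Lama, Lamb or Lamc with a number; Nid1, Nid2, Hspg2, Fn1 and Sparc) among protein-coding genes, and 60 genes matched. Of these, 44 had at least 1 TPM in at least 3 of 12 libraries and were tested, out of 14488 genes above the same filter and 24532 listed. TPM, the deposited measure, is a transcript level corrected for gene length and scaled to the same total in each library. The 16 genes under the filter were Col2a1, Col6a4, Col6a5, Col8a2, Col9a1, Col9a2, Col9a3, Col10a1, Col11a1, Col11a2, Col17a1, Col19a1, Col22a1, Col24a1, Col25a1 and Col28a1. Col19a1 was just outside, with a highest value of 0.998 TPM, and Col6a6 was just inside, at 1 TPM or more in 5 libraries, all of them wild type. Col6a6 therefore passed only through the genotype in which it is high, so its values are given as a description, and the counts below are over the other 43 genes, which were at 1 TPM or more in every library.

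The libraries were made from total RNA of kidneys of mice fasted overnight. Knockout mice carried the Nr1h4tm1Gonz/J allele, and wild-type mice were of the C57BL/6 strain. The product of Nr1h4 is FXR (farnesoid X receptor), the bile acid-sensing nuclear receptor, which the synthetic ligand GW4064 activates. The 4 groups, with 3 libraries each, were knockout on GW4064, knockout on vehicle, wild type on GW4064 and wild type on vehicle. The labels give 6 h for the GW4064 libraries and no time for the vehicle libraries. Age, sex and litter are not labelled, nor is it labelled if replicate libraries are separate animals or if the wild-type mice were littermates of the knockouts, so a p-value here measures only sample-to-sample spread, which may be technical. The allele is carried in the whole animal rather than in 1 kidney cell type. The series title concerns FXR in cisplatin kidney injury, and no library used here was labelled as cisplatin-treated.

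Basement membranes are thin sheets under epithelia and endothelia, built from a type IV collagen network and a laminin network that are joined by nidogens and the heparan sulfate proteoglycan perlecan. In the kidney they form the filter of the glomerulus and wrap each tubule. Fibrillar collagens (types I, III and V) make the rope-like fibers of the interstitium and vessel walls, where fibroblasts are their main source, and collagen VI forms beaded filaments between the fibers and the basement membranes.

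Sequencing depth, from the deposited coverage and FPKM, was 2.86 to 4.27 mapped gigabases, and 16693 to 17186 genes had a value above 0. All 8 whole-kidney markers examined (Umod, Slc34a1, Slc12a3, Slc12a1, Aqp2, Nphs1, Lrp2 and Kap) passed the filter. Nr1h4 averaged 123 ± 16.01 TPM in knockout and 212 ± 26.8 TPM in wild-type libraries under GW4064, and 116 ± 3.36 TPM in knockout and 244 ± 25.3 TPM in wild-type libraries on vehicle (SD, n = 3 each). What remains in the knockout was counted over the whole gene, so transcripts with and without the disrupted part are not separated. Slc51a, a bile acid exporter subunit and a known FXR target, averaged 30.7 ± 2.31 TPM on GW4064 and 40.8 ± 6.12 TPM on vehicle in the knockout, and 457 ± 49.2 TPM on GW4064 and 42.1 ± 5.86 TPM on vehicle in wild type.

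Type IV collagen genes lie in head-to-head pairs, transcribed away from each other from a common start region, and both members of the Col4a1 and Col4a2 pair and of the Col4a3 and Col4a4 pair were lower in knockout kidneys, so the stretches between them are shown first. In the deposited mm10 coordinates the gene spans of Col4a1 (minus strand) and Col4a2 (plus strand) overlap by 22 bases on chromosome 8. Those of Col4a4 (minus) and Col4a3 (plus) on chromosome 1 are 71 bases apart, and those of Col4a6 (minus) and Col4a5 (plus) on chromosome X are 1342 bases apart. Reads in the overlap of Col4a1 and Col4a2 can be assigned to their gene only by strand, and the sources used here do not give the strand setting of the counting. The sequences are from RefSeq promoter windows of GRCm38.p6, 5′ to 3′ on the plus strand, with capitals marking a GC box (GGGCGG, searched on both strands).
Col4a1-Col4a2 overlap, chr8:11312805-11312826: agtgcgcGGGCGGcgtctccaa
Col4a4-Col4a3 gap, chr1:82586850-82586920: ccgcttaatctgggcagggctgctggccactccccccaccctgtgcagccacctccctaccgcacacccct

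The 250 bases upstream of Col3a1 and Col8a1 are shown because these genes had the lowest and the highest log2 difference, knockout minus wild type on vehicle, of the members that passed the test. Both are written 5′ to 3′ on the strand of the gene. Capitals mark TATAA on either strand in the Col3a1 sequence, where the match on 1 strand overlaps the match on the other, and GGGCGG on either strand in the Col8a1 sequence.
Col3a1 upstream, plus strand, chr1:45311288-45311537: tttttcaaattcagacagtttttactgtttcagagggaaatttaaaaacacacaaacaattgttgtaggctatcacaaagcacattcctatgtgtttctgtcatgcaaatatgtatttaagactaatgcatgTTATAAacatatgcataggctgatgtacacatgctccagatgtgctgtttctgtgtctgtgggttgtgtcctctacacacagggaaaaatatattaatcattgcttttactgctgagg
Col8a1 upstream, minus strand, chr16:57754738-57754987: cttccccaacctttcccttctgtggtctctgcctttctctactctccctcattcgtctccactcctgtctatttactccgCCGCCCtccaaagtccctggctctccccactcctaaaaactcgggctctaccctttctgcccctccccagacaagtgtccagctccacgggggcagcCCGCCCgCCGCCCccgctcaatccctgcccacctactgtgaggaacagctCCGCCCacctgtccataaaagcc

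Upstream windows were found for 30 of the 44 members, 33 windows in all. GGGCGG was in 57.6% of these 250-base windows and in 32.7% of 32851 windows of all genes. CCAAT was in 30.3% of the member windows and in 33.8% of all windows, and TATAA in 15.2% and 22.8%. The half-site AGGTCA followed by 1 base and its reverse complement TGACCT, the textbook form of an FXR site, was in 0 of the 33 member windows and in 2 of all 32851. Each motif was searched on both strands, TATAA and its reverse complement can overlap, and a match is a description of the letters only.

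The main comparison asked how matrix transcripts differ where the receptor gene is disrupted. On vehicle, 21 of the 43 members fell in knockout kidneys and 1, Col8a1, rose (limma on log2(TPM + 0.5), Benjamini-Hochberg adjusted p under 0.05 over all genes). Over all 14488 genes, 9.73% were called lower, 3.19% higher and 12.9% in either direction. Under GW4064, 21 members fell and 2, Col8a1 and Col18a1, rose, where 11.4% of all genes were called lower, 7.08% higher and 18.5% in either direction. The 14488 genes needed 1 TPM in only 3 libraries, unlike the 43. In a fit of the 13000 genes at 1 TPM or more in every library, 11.4% were called lower on vehicle and 12.6% under GW4064. In that fit 22 of the 43 members were called lower in each setting. In the main fit the median log2 difference of the members, knockout minus wild type, was -0.40 on vehicle and -0.22 under GW4064. Over all genes it was -0.09 and -0.03. With median-of-ratios scaling of the libraries, the vehicle comparison gave 533 lower and 846 higher genes of all tested, in place of 1410 and 462, while 19 members were called lower and 1 higher.

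The knockout and wild-type libraries on vehicle are not those under GW4064, though all 12 share 1 estimate of the spread. In both settings 17 members were called lower, beside 3.88% of all genes, and Col8a1 was called higher, beside 1.98%. All 6 knockout libraries lay below all 6 wild-type libraries for 20 of the 43 members, beside 7.65% of all genes tested, and above them for Col8a1 alone of the members, beside 3.06%. The 20 comprised 9 of 20 basement membrane genes, 5 of 7 fibrillar collagens, 3 of 3 main collagen VI genes, Col15a1, Col26a1 and Sparc, and 0 of 4 fibril-associated collagens.

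**Figure D1:**
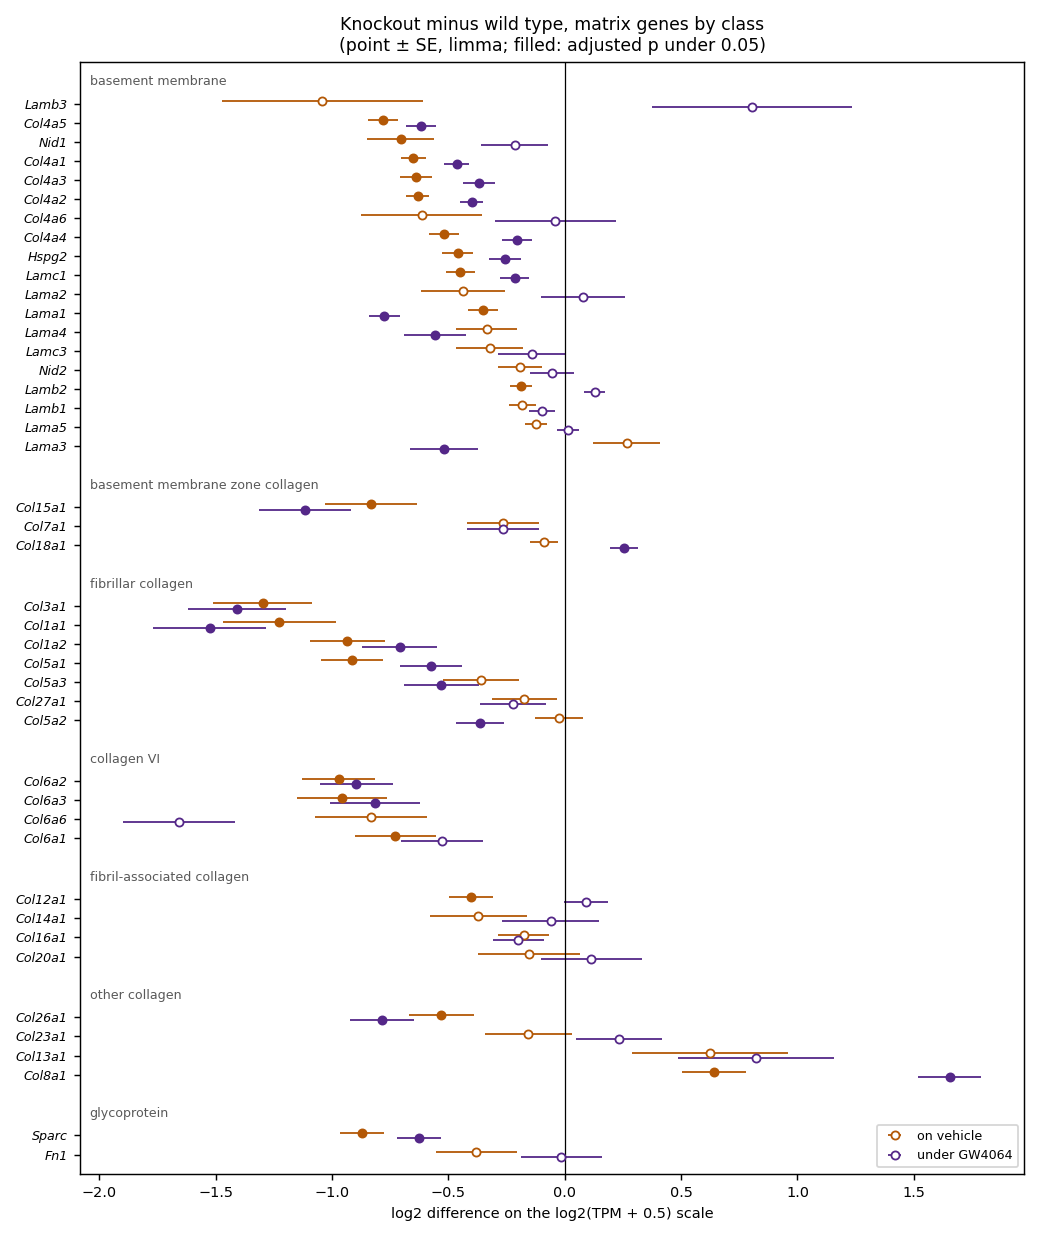
Log2 difference in level, knockout minus wild type, on vehicle and under GW4064, for the matrix genes by class (horizontal axis, log2(TPM + 0.5) scale; points with SE, 3 libraries per group; filled points have an adjusted p under 0.05). The type IV, I, III and VI collagens lie left of 0 in both settings, Col3a1 at -1.30 and -1.41, and Col8a1 lies to the right at 0.64 and 1.65. Col6a6 is drawn open because it passed the filter through wild type alone.

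Of the 20 basement membrane genes, 10 fell in the knockout on vehicle and 10 under GW4064, 0 rose, and 8 were called lower in both settings. Over all genes 9.73% were called lower on vehicle, 11.4% under GW4064 and 3.88% in both. The median log2 difference of the 20 was -0.44 on vehicle and -0.21 under GW4064, beside -0.09 and -0.03 over all genes. Col4a1 and Col4a2 encode the chains of the type IV collagen found in all basement membranes. Col4a1 (Entrez Gene 12826, chromosome 8, 11198423 to 11312826) measured 159, 149.6 and 151 TPM in knockout and 249, 234 and 241 TPM in wild-type libraries on vehicle, and 177, 170.0 and 176 TPM in knockout and 228, 232 and 264 TPM in wild-type libraries under GW4064. No knockout library reached the lowest wild-type library. On the log2 scale the vehicle difference was -0.65 ± 0.05 (SE) and the GW4064 difference -0.46 ± 0.05 (limma, adjusted p = 4.0e-05 and 0.000127). Col4a2 (Entrez Gene 12827, chromosome 8, 11312805 to 11449287) measured 97.5, 92.7 and 89.2 TPM in knockout and 145, 142 and 147 TPM in wild-type libraries on vehicle, a log2 difference of -0.63 ± 0.05, and its difference under GW4064 was -0.40 ± 0.05 (adjusted p = 3.7e-05 and 0.000226). The ratio of Col4a2 to Col4a1 TPM stayed between 0.575 and 0.620 over all 12 libraries.

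Col4a3, Col4a4 and Col4a5 encode the chains of the second type IV network, which is characteristic of the glomerular basement membrane and is the one affected in Alport syndrome. Col4a3 (Entrez Gene 12828, chromosome 1, 82586921 to 82722059) measured 148, 153 and 145 TPM in knockout and 218, 252 and 226 TPM in wild-type libraries on vehicle, and 142, 144 and 163 TPM in knockout and 180.5, 193 and 205 TPM in wild-type libraries under GW4064. Its log2 difference was -0.64 ± 0.07 on vehicle and -0.37 ± 0.07 under GW4064 (adjusted p = 0.000287 and 0.00334). Col4a5 (Entrez Gene 12830, chromosome X, 141475419 to 141689235) measured 38.2, 37.2 and 44.3 TPM in knockout and 70.2, 68.5 and 67.5 TPM in wild-type libraries on vehicle, with log2 differences of -0.78 ± 0.06 on vehicle and -0.62 ± 0.06 under GW4064 (adjusted p = 4.0e-05 and 5.7e-05). Both genes were separated by genotype in every library.

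Col4a4 (Entrez Gene 12829, chromosome 1, 82450723 to 82586849) measured 124, 126 and 127 TPM in knockout and 168, 195 and 179 TPM in wild-type libraries on vehicle, a log2 difference of -0.52 ± 0.06 (adjusted p = 0.000697). Under GW4064 it measured 125, 130.2 and 138 TPM in knockout and 140.2, 152 and 162 TPM in wild-type libraries, so the nearest libraries of the 2 genotypes were close, and the difference of -0.21 ± 0.06 passed narrowly (adjusted p = 0.0443). That call was lost with 8 of 12 libraries left out in turn and under 7 of 14 other settings (adjusted p up to 0.165). The ratio of Col4a4 to Col4a3 TPM ran from 0.821 to 0.908 in knockout and from 0.771 to 0.792 in wild-type libraries. Col4a6, the partner of Col4a5 in other kidney basement membranes, ranged from 1.95 to 4.36 TPM in knockout and from 2.71 to 5.52 TPM in wild-type libraries and passed in neither setting (log2 difference -0.61 ± 0.26 and -0.04 ± 0.26).

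**Figure D2:**
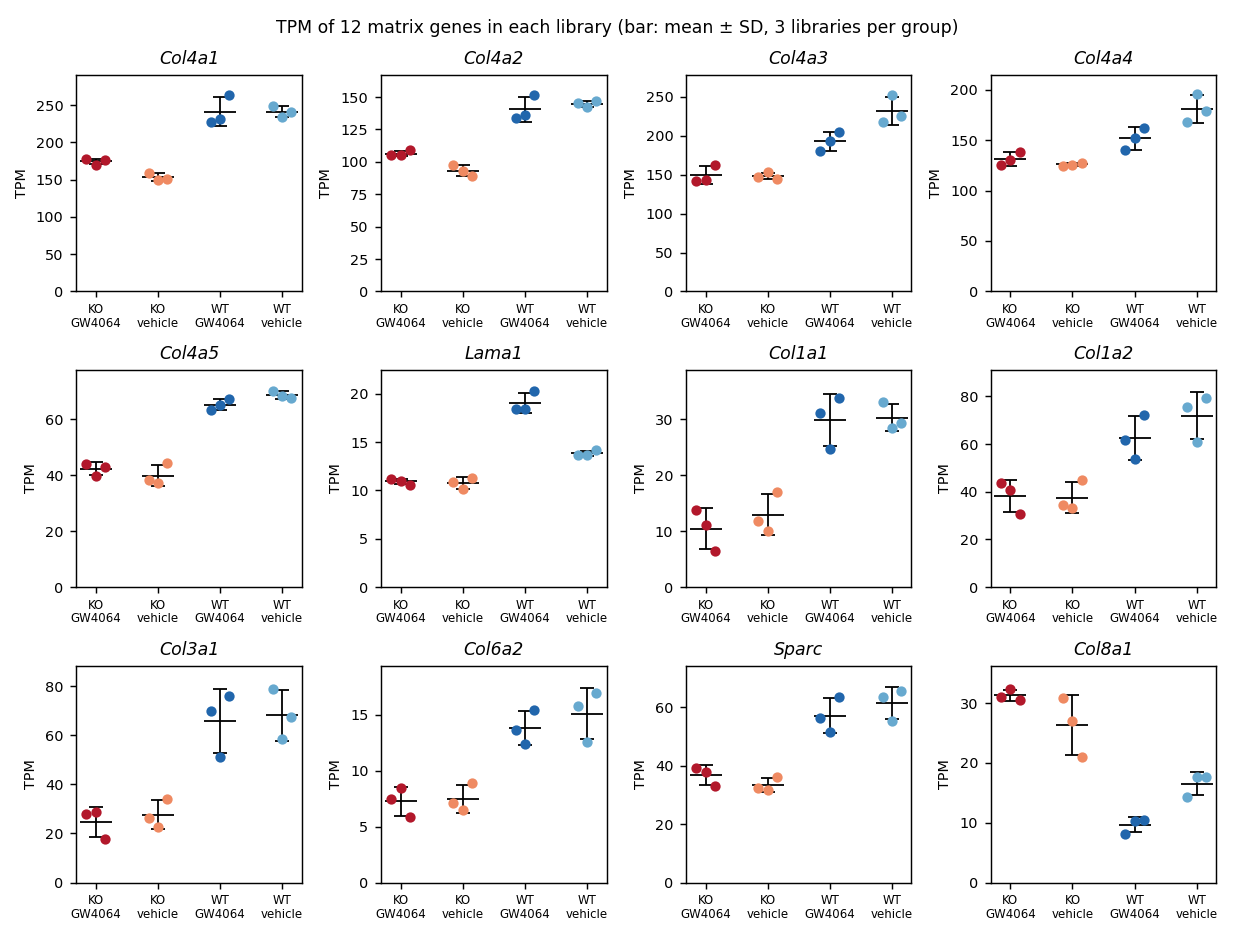
TPM of 12 matrix genes in each library (points; bars are group mean ± SD, n = 3) for knockout on GW4064, knockout on vehicle, wild type on GW4064 and wild type on vehicle. Knockout points lie below the wild-type points in every panel except Col8a1, where they lie above. Lama1 is the panel in which wild type on GW4064 (18.4 to 20.3 TPM) stands above wild type on vehicle (13.7 to 14.2 TPM).

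Lama1, Lamc1 and Lamb2 were the laminin chains called lower on vehicle, and Lama1, Lamc1, Lama3 and Lama4 under GW4064. Lama1, the alpha chain of tubular basement membrane laminin, fell in the knockout in both settings. Lama1 (Entrez Gene 16772, chromosome 17, 67697265 to 67822645) measured 10.9, 10.1 and 11.3 TPM in knockout and 13.7, 13.7 and 14.2 TPM in wild-type libraries on vehicle, and 11.2, 11.0 and 10.6 TPM in knockout and 18.5, 18.4 and 20.3 TPM in wild-type libraries under GW4064. The log2 difference was -0.35 ± 0.07 on vehicle and -0.77 ± 0.07 under GW4064 (adjusted p = 0.00692 and 1.3e-05). The knockout values overlapped between the settings, and the wild-type values on GW4064 lay above those on vehicle.

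Lamc1, the gamma chain of most laminins, ranged from 27.4 to 29.0 TPM across knockout and from 36.2 to 39.6 TPM across wild-type libraries on vehicle, a log2 difference of -0.45 ± 0.06 (adjusted p = 0.00125). Under GW4064 its difference was -0.22 ± 0.06 (adjusted p = 0.0325), a call lost without any 1 of wild-type GW4064 replicates 1, 2 and 3 or of replicates 2 and 3 of the knockout on GW4064 (adjusted p up to 0.114). Lamb2, the beta chain of glomerular laminin, measured 46.2, 44.3 and 45.6 TPM in knockout and 53.8, 50.8 and 50.7 TPM in wild-type libraries on vehicle (log2 difference -0.19 ± 0.05, adjusted p = 0.0225). This call was lost under median-of-ratios and quantile scaling, in a fit of the compared groups alone, and without wild-type vehicle replicate 1 or 3 or knockout vehicle replicate 2 (adjusted p up to 0.173). Under GW4064 the sign of Lamb2 was positive (0.13 ± 0.05, adjusted p = 0.0765).

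Lama3 and Lama4 were called lower under GW4064 alone. Lama3, the alpha chain of laminin in hemidesmosome-bearing epithelia, measured 15.3, 21.5 and 18.2 TPM in knockout and 30.6, 22.2 and 26.7 TPM in wild-type libraries under GW4064 (log2 difference -0.52 ± 0.15, adjusted p = 0.0284). On vehicle its difference was 0.27 ± 0.15 (adjusted p = 0.238), and the call under GW4064 was lost without replicate 1 or 3 of either GW4064 group (adjusted p up to 0.116). Lama4, the alpha chain of vascular laminin, ranged from 4.76 to 7.36 TPM over the knockout and from 7.56 to 9.07 TPM over the wild-type libraries, with differences of -0.34 ± 0.13 on vehicle (adjusted p = 0.114) and -0.56 ± 0.13 under GW4064 (adjusted p = 0.013). Lama2, Lama5, Lamb1, Lamb3 and Lamc3 passed in neither setting, with log2 differences of -0.44 ± 0.18 and 0.08 ± 0.18 for the muscle-type alpha chain Lama2. Lama5, the alpha chain of mature glomerular laminin, ranged from 59.1 to 68.8 TPM in knockout and from 66.7 to 69.1 TPM in wild-type libraries, and Lamb1, a beta chain of tubular laminin, from 108 to 123 TPM in knockout and from 119 to 137 TPM in wild-type libraries.

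Lamb3, a beta chain of the same laminin as Lama3, had opposite signs in the 2 settings without passing. It measured 1.24, 1.45 and 3.21 TPM in knockout and 5.22, 3.12 and 4.79 TPM in wild-type libraries on vehicle, and 4.47, 1.27 and 5.91 TPM in knockout and 1.41, 1.58 and 2.16 TPM in wild-type libraries under GW4064. Its log2 difference was -1.04 ± 0.43 on vehicle and 0.80 ± 0.43 under GW4064 (adjusted p = 0.129 and 0.23). Knockout GW4064 replicate 2 was far below its 2 partners, and without it the adjusted p was 0.0416 on vehicle and 0.0174 under GW4064, with a difference of 1.36 there. The summed level of 6 urothelium markers had its group means in the same order as those of Lamb3. On vehicle it was 15.6, 7.99 and 18.8 TPM in knockout and 21.8, 18.8 and 21.2 TPM in wild-type libraries. Under GW4064 it was 27.0, 11.7 and 17.6 TPM in knockout and 10.8, 12.7 and 11.95 TPM in wild-type libraries. Knockout GW4064 replicate 2 was the lowest of its group in that sum too. Only the wild-type vehicle group had its libraries in the same order for Lamb3 and for the sum. The part of urothelium in the Lamb3 values was not tested.

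Perlecan and nidogen join the type IV and laminin networks. Hspg2 (Entrez Gene 15530, chromosome 4, 137468803 to 137570630) measured 35.8, 34.3 and 37.4 TPM in knockout and 51.1, 45.0 and 52.6 TPM in wild-type libraries on vehicle (log2 difference -0.46 ± 0.07, adjusted p = 0.00193). Under GW4064 it measured 39.4, 35.6 and 35.8 TPM in knockout and 43.7, 42.4 and 46.7 TPM in wild-type libraries (-0.26 ± 0.07, adjusted p = 0.0216), a call lost without wild-type GW4064 replicate 1 or 3 or knockout GW4064 replicate 2 or 3 (adjusted p up to 0.0812). Nid1 measured 32.8, 29.4 and 27.7 TPM in knockout and 49.7, 40.9 and 58.2 TPM in wild-type libraries on vehicle (-0.71 ± 0.14, adjusted p = 0.0103), and its difference under GW4064 was -0.21 ± 0.14 (adjusted p = 0.342). Nid2 passed in neither setting (-0.19 ± 0.09 and -0.06 ± 0.09).

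The collagens at the outer face of basement membranes showed 3 patterns. Col15a1, a collagen with chondroitin sulfate chains in vessel and muscle basement membranes, measured 10.2, 8.96 and 12.5 TPM in knockout and 20.7, 15.2 and 21.8 TPM in wild-type libraries on vehicle, and 10.1, 9.76 and 6.24 TPM in knockout and 19.8, 15.9 and 21.9 TPM in wild-type libraries under GW4064. The genotypes did not overlap, with log2 differences of -0.83 ± 0.20 and -1.12 ± 0.20 (adjusted p = 0.0197 and 0.00237). Its vehicle call did not hold without replicate 1 or 3 of the wild-type or replicate 1 or 2 of the knockout vehicle libraries (adjusted p up to 0.0753). Col18a1, the source of endostatin, measured 136, 120.5 and 118 TPM in knockout and 101, 109 and 104 TPM in wild-type libraries under GW4064 (0.25 ± 0.06, adjusted p = 0.0132; 0.0569 without wild-type GW4064 replicate 1), while its difference on vehicle was -0.09 ± 0.06. Col7a1, the collagen of anchoring fibrils, stayed under 2 TPM and passed in neither setting.

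Of the 7 fibrillar collagens, 4 fell on vehicle and 6 under GW4064, beside 9.73% and 11.4% of all genes called lower. The median log2 difference of the 7 was -0.91 and -0.58, beside -0.09 and -0.03 over all genes. The type I and III genes had differences further from 0 than every type IV gene in both settings, a contrast that was not tested. Col1a1 (Entrez Gene 12842, chromosome 11, 94936224 to 94953042), a chain of type I collagen, measured 11.9, 10.0 and 17.0 TPM in knockout and 33.1, 28.5 and 29.4 TPM in wild-type libraries on vehicle, and 13.7, 11.1 and 6.47 TPM in knockout and 31.1, 24.8 and 33.9 TPM in wild-type libraries under GW4064. The highest knockout library was below the lowest wild-type library. The log2 difference was -1.23 ± 0.24 on vehicle and -1.53 ± 0.24 under GW4064 (adjusted p = 0.00891 and 0.00112). Col3a1 (Entrez Gene 12825, chromosome 1, 45311538 to 45349706), the type III chain, measured 26.2, 22.5 and 34.0 TPM in knockout and 78.8, 58.3 and 67.2 TPM in wild-type libraries on vehicle, and 27.7, 28.6 and 17.6 TPM in knockout and 70.0, 51.0 and 76.0 TPM in wild-type libraries under GW4064. Knockout GW4064 replicate 3 was the lowest of all 12 libraries for both genes. The Col3a1 difference was -1.30 ± 0.21 on vehicle and -1.41 ± 0.21 under GW4064 (adjusted p = 0.0032 and 0.000762).

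Col1a2, the other type I chain, measured 34.4, 33.0 and 44.9 TPM in knockout and 75.6, 60.8 and 79.4 TPM in wild-type libraries on vehicle (log2 difference -0.93 ± 0.16, adjusted p = 0.00437), and its difference under GW4064 was -0.71 ± 0.16 (adjusted p = 0.0102). The ratio of Col1a2 to Col1a1 TPM averaged 3.85 ± 0.793 in knockout and 2.10 ± 0.0971 in wild-type libraries under GW4064, and 2.95 ± 0.331 in knockout and 2.37 ± 0.294 in wild-type libraries on vehicle (SD, n = 3 each). Col5a1, a type V chain that helps start type I fibrils, differed by -0.91 ± 0.13 on vehicle and -0.58 ± 0.13 under GW4064 (adjusted p = 0.00175 and 0.0111). The type V chains Col5a2 (log2 difference -0.37 ± 0.10, adjusted p = 0.0308) and Col5a3 (-0.53 ± 0.16, adjusted p = 0.0416) were called lower under GW4064 alone. Those 2 calls were lost with 4 of 12 (Col5a2, every one a GW4064 library: wild type 1 and 3, knockout 2 and 3) and 9 of 12 (Col5a3) libraries left out in turn, with adjusted p up to 0.107 and 0.14.

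Col27a1, a fibrillar collagen best known from cartilage, did not follow the others. It measured 67.3, 79.2 and 74.2 TPM in knockout and 90.4, 78.0 and 80.4 TPM in wild-type libraries on vehicle (log2 difference -0.17 ± 0.14, adjusted p = 0.432), and -0.22 ± 0.14 was its difference under GW4064 (adjusted p = 0.313). Its libraries overlapped between genotypes in both settings, and it had the highest mean TPM of the 7 fibrillar genes in each of the 4 groups.

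Of the 3 main collagen VI genes, 3 fell in the knockout on vehicle and 2 under GW4064, beside 9.73% and 11.4% of all genes. Col6a1, Col6a2 and Col6a3 encode these chains, and each was below wild type in all 6 knockout libraries. Col6a2 (Entrez Gene 12834, chromosome 10, 76595756 to 76623630) measured 7.09, 6.46 and 8.86 TPM in knockout and 15.8, 12.6 and 17.0 TPM in wild-type libraries on vehicle, and 7.46, 8.48 and 5.83 TPM in knockout and 13.7, 12.4 and 15.4 TPM in wild-type libraries under GW4064. Its log2 difference was -0.97 ± 0.16 on vehicle and -0.90 ± 0.16 under GW4064 (adjusted p = 0.00317 and 0.00225). Col6a3 differed by -0.96 ± 0.19 and -0.82 ± 0.19 (adjusted p = 0.0103 and 0.013). The Col6a3 call under GW4064 was lost without wild-type GW4064 replicate 3 or knockout GW4064 replicate 3 (adjusted p up to 0.0527).

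Col6a1 measured 13.6, 13.5 and 15.1 TPM in knockout and 24.5, 18.6 and 28.8 TPM in wild-type libraries on vehicle (log2 difference -0.73 ± 0.18, adjusted p = 0.0207, up to 0.0808 without replicate 1 or 3 of the wild-type or 1 or 2 of the knockout vehicle libraries). Under GW4064 its difference was -0.53 ± 0.18 (adjusted p = 0.057). The ratio of Col6a2 to Col6a1 TPM ran from 0.454 to 0.587 in knockout and from 0.591 to 0.678 in wild-type libraries. Col6a6, a minor chain, measured 0.358, 0.469 and 0.265 TPM in knockout and 1.17, 0.886 and 1.05 TPM in wild-type libraries on vehicle, and 0.708, 0.394 and 0.306 TPM in knockout and 2.49, 1.86 and 3.37 TPM in wild-type libraries under GW4064. Its knockout libraries were all under 1 TPM, and the highest values were those of wild type on GW4064.

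Col6a1, Col6a2, Col18a1, Col13a1, Lama4 and Lama2 lie on chromosome 10, as does Nr1h4 (89454234 to 89533622). Col18a1, Col6a1 and Col6a2 are 12.3, 12.7 and 12.8 Mb (megabases) from Nr1h4, and the other 3 are 27.5 to 61.8 Mb away. Between genotypes, Col6a2 was called lower in both settings and Col6a1 lower on vehicle alone. Under GW4064 alone, Lama4 was called lower and Col18a1 higher. Col13a1 and Lama2 passed in neither setting. Strain sequence carried along with the targeted allele was not tested.

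The fibril-associated collagens sit on the surface of fibrils, and 1 of 4 was called on vehicle and 0 under GW4064. Over all genes 9.73% and 11.4% were called lower. Col12a1 was lower on vehicle with 5.43, 4.94 and 5.97 TPM in knockout and 8.03, 6.94 and 7.09 TPM in wild-type libraries (log2 difference -0.40 ± 0.09, adjusted p = 0.0196). It was lost without wild-type vehicle replicate 1 or knockout vehicle replicate 1 or 2, under quantile scaling and in a fit of the compared groups alone (adjusted p up to 0.0882). Col14a1 ranged from 23.3 to 37.2 TPM in knockout and from 25.0 to 45.9 TPM in wild-type libraries, and Col14a1, Col16a1 and Col20a1 passed in neither setting.

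Sparc, a secreted glycoprotein that binds collagen and is needed for its deposition, measured 32.3, 31.6 and 36.2 TPM in knockout and 63.5, 55.4 and 65.7 TPM in wild-type libraries on vehicle, and 39.4, 37.9 and 33.0 TPM in knockout and 56.4, 51.4 and 63.4 TPM in wild-type libraries under GW4064. The genotypes did not overlap. The Sparc (Entrez Gene 20692, chromosome 11, 55394159 to 55420080) log2 difference was -0.87 ± 0.09 on vehicle and -0.63 ± 0.09 under GW4064 (adjusted p = 0.000295 and 0.000813). Fn1, fibronectin, passed in neither setting, with -0.38 ± 0.18 on vehicle and -0.01 ± 0.18 under GW4064. Col26a1, a little-studied secreted collagen, ranged from 2.52 to 3.75 TPM in knockout and from 4.25 to 5.39 TPM in wild-type libraries. Its differences were -0.53 ± 0.14 on vehicle and -0.79 ± 0.14 under GW4064 (adjusted p = 0.0303 and 0.00237), and the vehicle call did not hold without replicate 1 or 3 of the wild-type or 2 or 3 of the knockout vehicle libraries (adjusted p up to 0.107) and under 4 of 14 other settings.

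Col8a1 went the other way. It encodes a short-chain collagen of the vessel wall. Col8a1 (Entrez Gene 12837, chromosome 16, 57624256 to 57754737) measured 30.9, 27.0 and 21.0 TPM in knockout and 14.4, 17.6 and 17.7 TPM in wild-type libraries on vehicle, and 31.1, 32.4 and 30.5 TPM in knockout and 8.19, 10.3 and 10.5 TPM in wild-type libraries under GW4064. All knockout libraries were above all wild-type libraries. The log2 difference was 0.64 ± 0.14 on vehicle (adjusted p = 0.0129, and 0.0517 without wild-type vehicle replicate 1) and 1.65 ± 0.14 under GW4064 (adjusted p = 1.1e-05). The transmembrane collagens Col13a1 and Col23a1 passed in neither setting, Col13a1 at 0.62 ± 0.34 and 0.82 ± 0.34.

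Summed over each class, the basement membrane genes came to 1049 ± 18.5 TPM in knockout and 1275 ± 70.4 TPM in wild-type libraries under GW4064, and to 984 ± 15.9 TPM in knockout and 1380.2 ± 22.6 TPM in wild-type libraries on vehicle (SD, n = 3 each). The fibrillar collagens came to 170.0 ± 29.3 TPM in knockout and 276 ± 15.6 TPM in wild-type libraries under GW4064, and to 178 ± 14.3 TPM in knockout and 286 ± 25.6 TPM in wild-type libraries on vehicle. Collagen VI, here 4 genes with Col6a6 included, summed to 30.9 ± 5.99 TPM in knockout and 52.8 ± 7.37 TPM in wild-type libraries under GW4064. On vehicle it summed to 30.2 ± 3.67 TPM in knockout and 56.7 ± 11.1 TPM in wild-type libraries.

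The ratio of basement membrane to fibrillar summed TPM was 5.55, 5.57 and 7.85 in knockout and 4.45, 4.76 and 4.63 in wild-type libraries under GW4064. On vehicle it was 5.92, 5.66 and 5.09 in knockout and 4.39, 5.32 and 4.83 in wild-type libraries. In this summed form the genotypes overlapped on vehicle and not under GW4064. The group means were 6.32 ± 1.32 for knockout on GW4064, 5.56 ± 0.426 for knockout on vehicle, 4.61 ± 0.157 for wild type on GW4064 and 4.85 ± 0.467 for wild type on vehicle. No test was made of a sum over chosen genes. Without Col27a1, left out after its values were seen, the means were 10.9, 9.54, 6.68 and 6.84 in that order of groups, and the genotypes did not overlap in either setting.

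**Figure D3:**
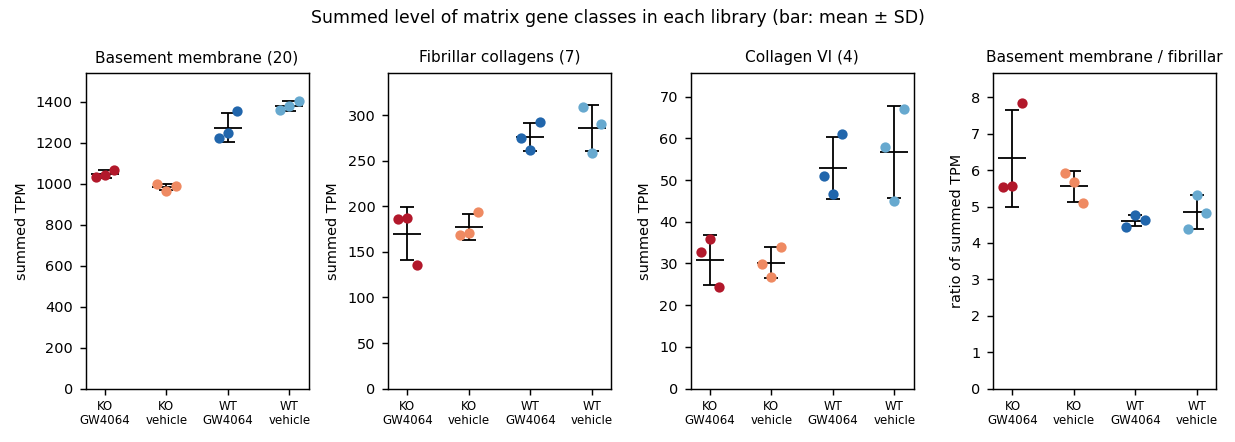
Summed TPM of the 20 basement membrane genes, 7 fibrillar collagens and 4 collagen VI genes, and the ratio of the first sum to the second, in each library (points; bars are mean ± SD, n = 3 per group). Each of the 3 sums is lower in all knockout libraries than in all wild-type libraries, and the ratio runs from 5.09 to 7.85 in knockout and from 4.39 to 5.32 in wild-type libraries. The collagen VI sum includes Col6a6, which passed the filter through wild type alone.

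The agonist was compared with vehicle within each genotype to see which matrix transcripts respond where the receptor gene is intact. In the knockout 0 of the 43 members were called by limma, beside 0.0138% of all genes called (0.0069% in each direction). An unadjusted limma p under 0.05 was found for 7 members. With Col6a6 included the share was 15.9% of 44 members, beside 10.8% of all genes. In wild type 3 members were called, beside 4.8% of all genes (2.48% higher and 2.32% lower), Lama1 higher and Col8a1 and Col4a4 lower, a share near that of all genes. There 12 of the 43 members had an unadjusted p under 0.05 by limma. With Col6a6 included the share was 29.5% of 44 members, beside 19.3% of all genes. The median log2 difference of the members, GW4064 minus vehicle, was 0.09 in the knockout and -0.11 in wild type, beside 0.02 and -0.03 over all genes.

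The log2 difference of Lama1 was 0.02 ± 0.07 in the knockout (adjusted p = 0.943) and 0.44 ± 0.07 in wild type, where it rose (adjusted p = 0.00227). That of Col8a1 was 0.26 ± 0.14 in the knockout (adjusted p = 0.53) and -0.75 ± 0.14 in wild type, where it fell (adjusted p = 0.0087). For both genes the 3 GW4064 libraries lay outside the range of the 3 vehicle libraries in wild type. Col4a4 fell in wild type, with a difference of -0.25 ± 0.06 (adjusted p = 0.0473), a call lost with 8 of 12 libraries left out in turn (adjusted p up to 0.18).

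The difference of the agonist's effect between genotypes was tested directly as an interaction, knockout minus wild type. It was called for 3 of the 43 members, beside 3.19% of all genes (1.47% higher and 1.72% lower). Its unadjusted limma p was under 0.05 for 15 of the 43. With Col6a6 included the share was 36.4% of 44 members, beside 19% of all genes. Col8a1 had 1.01 ± 0.19 (adjusted p = 0.0177), Lamb2 0.32 ± 0.07 (adjusted p = 0.025) and Lama1 -0.42 ± 0.09 (adjusted p = 0.0326). Col8a1 kept its call with every library left out in turn, and Lamb2 and Lama1 lost theirs with 5 and 10 of 12 left out (adjusted p up to 0.0717 and 0.0776). Once a fat marker score was added to the fit none of the 3 passed (adjusted p up to 0.0815), while their values stayed about as large, at 1.01 for Col8a1, 0.33 for Lamb2 and -0.44 for Lama1. That score ran from -0.26 to 2.70 within the wild-type GW4064 libraries and from 1.99 to 2.30 within the wild-type vehicle libraries.

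**Figure D4:**
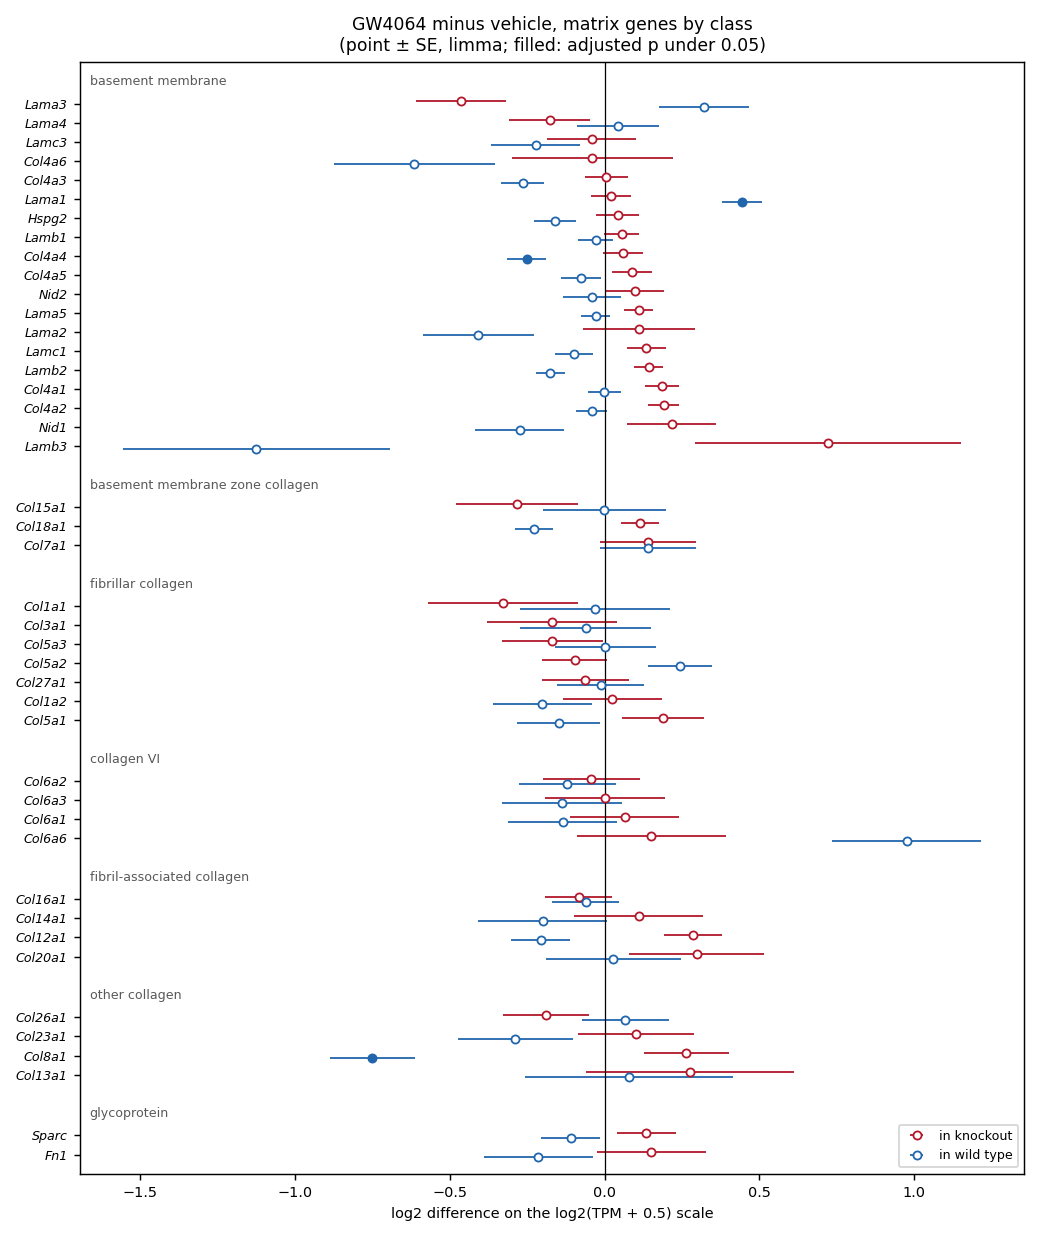
Log2 difference in level, GW4064 minus vehicle, in the knockout and in wild type for the matrix genes by class (horizontal axis, log2(TPM + 0.5) scale; points with SE, 3 libraries per group; filled points have an adjusted p under 0.05). No point is filled in the knockout, and Lama1 at 0.44, Col4a4 at -0.25 and Col8a1 at -0.75 are filled in wild type. Col6a6 is drawn open because it passed the filter through wild type alone.

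Genes that modify, cross-link or bind the same proteins were read from lists. Of 28 collagen processing genes tested, 5 fell in the knockout on vehicle and 0 rose, and 5 fell and 3 rose under GW4064. These are 17.9% and 0% on vehicle, beside 9.73% lower and 3.19% higher over all genes, and 17.9% and 10.7% under GW4064, beside 11.4% and 7.08%, so the shares under GW4064 were near those of all genes. P4hb, a subunit of the prolyl hydroxylase that stabilizes the triple helix, averaged 593 ± 7.51 TPM in knockout and 687 ± 12.5 TPM in wild-type libraries on vehicle (log2 difference -0.21 ± 0.03, adjusted p = 0.00274), and was called lower under GW4064 as well (-0.16 ± 0.03). Ppib, a collagen-folding isomerase, differed by -0.26 ± 0.05 on vehicle and -0.23 ± 0.05 under GW4064 (adjusted p = 0.00451 and 0.004). P3h2, which hydroxylates type IV collagen, and the cross-linking enzyme Loxl2 were called lower on vehicle (-0.33 ± 0.06 and -0.76 ± 0.17). Under GW4064 the cross-linking enzymes Lox (0.87 ± 0.24) and Loxl4 (0.86 ± 0.20) and the hydroxylase-complex gene P3h4 (0.60 ± 0.14) were called higher. The collagen chaperone Serpinh1 varied widely, 38.9 ± 3.86 TPM in knockout and 66.3 ± 23.0 TPM in wild-type libraries on vehicle, and did not pass (adjusted p = 0.142).

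Of 12 further basement membrane proteins tested, 5 (41.7%) fell on vehicle, and 6 (50%) fell and 1 (8.33%) rose under GW4064. Over all genes 9.73% were called lower on vehicle, and 11.4% lower and 7.08% higher under GW4064. Frem2, Fras1 and Frem1, which form a complex under developing epithelia, were called lower in both settings, Frem2 by -0.72 ± 0.09 and -0.65 ± 0.09 and Fras1 by -0.47 ± 0.07 and -0.48 ± 0.07. Fras1 averaged 18.6 ± 1.33 TPM in knockout and 26.0 ± 1.25 TPM in wild-type libraries on vehicle. Agrn (agrin) and Ntn4 (netrin-4) were called lower in both settings too, by -0.33 ± 0.06 and -0.24 ± 0.07 on vehicle. Tinagl1, a matrix glycoprotein of tubules and vessels, was higher in the knockout under GW4064 (0.47 ± 0.06, adjusted p = 0.00022).

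Among 26 other interstitial matrix genes tested, 4 (15.4%) fell on vehicle and 2 (7.69%) under GW4064, shares near 9.73% and 11.4% over all genes. Eln, elastin, averaged 3.61 ± 0.333 TPM in knockout and 6.40 ± 0.391 TPM in wild-type libraries under GW4064, and 3.39 ± 0.246 TPM in knockout and 8.30 ± 1.19 TPM in wild-type libraries on vehicle (log2 difference -0.75 ± 0.12 and -1.17 ± 0.12, adjusted p = 0.00104 and 0.00017). Fbn1, Tnc and Vcan were called lower on vehicle and Aspn under GW4064. The list's median log2 difference was -0.35 on vehicle and 0.08 under GW4064, whereas that of the fibrillar collagens was -0.91 and -0.58. Of 22 matrix receptors, 4 (18.2%) fell and 1 (4.55%) rose on vehicle, and 3 (13.6%) fell and 2 (9.09%) rose under GW4064, the last 3 shares near those of all genes, with the nephronectin receptor subunit Itga8 lower in both (-0.94 ± 0.14 and -0.53 ± 0.14). Of 18 matrix turnover genes, 8 (44.4%) fell and 2 (11.1%), Ctsb and Ctsl, rose on vehicle, beside 9.73% and 3.19% of all genes. Under GW4064 3 (16.7%) fell and 2 (11.1%), Timp3 and Plat, rose, beside 11.4% and 7.08%. Adamts9, Mep1b and Plau were lower in both, and Mmp2, which cleaves denatured and type IV collagen, was called lower on vehicle (-1.13 ± 0.22, adjusted p = 0.00872). In the TGF-beta pathway, a main inducer of fibrillar collagen genes, 8 of 23 genes (34.8%) fell on vehicle and 1 (4.35%), Ccn1, rose. Over all genes these shares were 9.73% and 3.19%. Under GW4064 1 (4.35%), Bmp7, fell and 1 (4.35%), Skil, rose, shares not above the 11.4% and 7.08% of all genes. Tgfb1 differed by -0.50 ± 0.13 on vehicle and 0.08 ± 0.13 under GW4064. The part of this pathway in the collagen differences was not tested.

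The cells that make these proteins were followed through marker genes, since in whole kidney fewer cells of a type and less RNA per cell cannot be told apart. Podocytes, the cells that secrete the glomerular type IV chains, had 5 of 8 markers lower in the knockout on vehicle and 4 of 8 under GW4064. These are 62.5% and 50%, beside 9.73% and 11.4% of all genes called lower. The summed podocyte level was 233 to 249 TPM in knockout and 267 to 269.5 TPM in wild-type libraries under GW4064, and 228 to 254 TPM in knockout and 283 to 295 TPM in wild-type libraries on vehicle.

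Of 10 fibroblast and pericyte markers, 4 (Cspg4, Gsn, Pdgfra and Pdgfrb) were called lower in the knockout on vehicle, beside 9.73% of all genes. Under GW4064 1 of 10, Cspg4, was, near the 11.4% of all genes. Their sum was 240.4 to 270.4 TPM in knockout and 216 to 261 TPM in wild-type libraries under GW4064, and 226 to 240.2 TPM in knockout and 281 to 372 TPM in wild-type libraries on vehicle. The median log2 difference of the list was -0.38 on vehicle and 0.06 under GW4064. Under GW4064 the summed fibroblast markers overlapped between genotypes. In wild type 3 of these 10 markers (30%, Gsn, Cspg4 and Pdgfra) were called lower on GW4064, beside 2.32% of all genes. The part of fibroblasts and pericytes in the fibrillar collagen differences was not tested.

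Endothelial markers were lower for 5 of 10 (50%) on vehicle, beside 9.73% of all genes. Under GW4064 2 (20%), Kdr and Ehd3, were lower and 2 (20%), Flt1 and Plvap, higher, beside 11.4% and 7.08% of all genes. Their sum was 594 to 611 TPM in knockout and 595 to 632 TPM in wild-type libraries under GW4064, and 556 to 596 TPM in knockout and 631 to 683 TPM in wild-type libraries on vehicle. Smooth muscle had 1 of 5 tested markers (20%) lower on vehicle and 0 under GW4064, and mesangium 1 of 4 (25%), Itga8, in both. Of 5 macrophage markers, C1qa and C1qb (40%) were higher on vehicle and 1 (20%), Csf1r, was lower under GW4064. These stand beside 3.19% higher on vehicle and 11.4% lower under GW4064 over all genes. In both settings 4 of the 5 had log2 differences above 0, with medians of 0.20 and 0.28. Fat markers had 0 of 7 called on vehicle and Lipe higher under GW4064, with Lep under 1 TPM in every library, and urothelium and mesothelium had 0 called in either setting. All 4 tested urothelium markers (the uroplakins Upk1a, Upk1b, Upk2 and Upk3a) had log2 differences below 0 on vehicle and above 0 under GW4064, with medians of -0.55 and 0.55. The part of any of these cell types in the collagen and laminin differences was not tested.

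**Figure D5:**
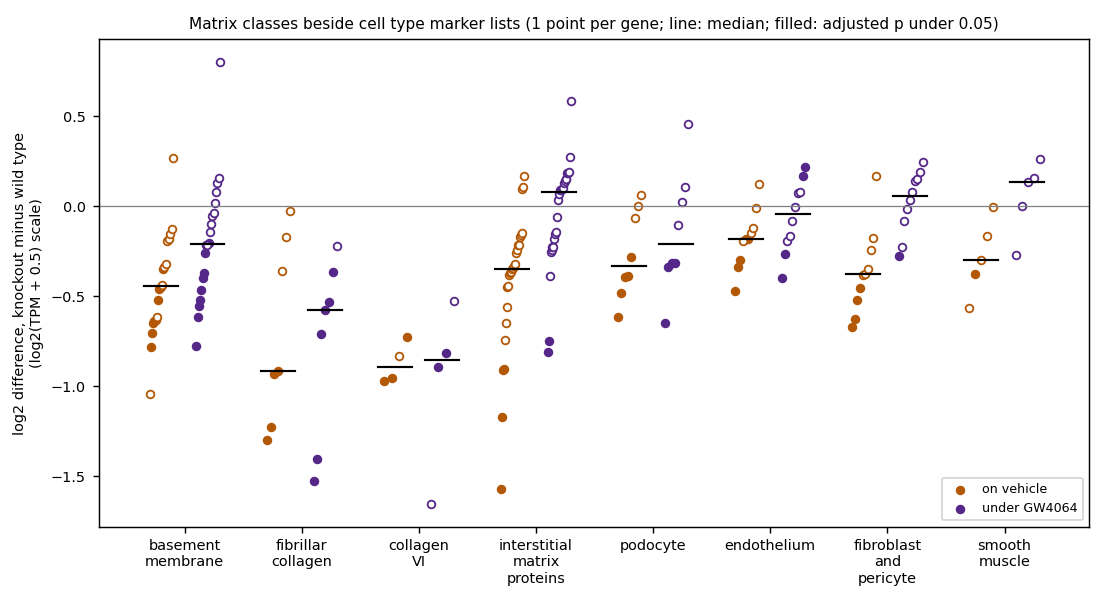
Log2 difference in level, knockout minus wild type, for 3 matrix gene classes, other interstitial matrix genes and 4 cell type marker lists, on vehicle and under GW4064 (vertical axis, log2(TPM + 0.5) scale; 1 point per gene, lines are medians, filled points have an adjusted p under 0.05, and Col6a6 is drawn open). Fibroblast and pericyte markers center at -0.38 on vehicle and 0.06 under GW4064, and the fibrillar collagens at -0.91 and -0.58.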

How the data were processed

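Kidney total RNA of 12 libraries was sequenced with a stranded total RNA kit, per the labels. The authors deposited 1 table per library with coverage, FPKM and TPM per gene. The submitters' processing notes name the tools Cufflinks, HISAT2 and StringTie and the build mm10, with no version or role, and which annotation was used is not given. The deposited TPM values are scaled by the authors to 1000000 per library and hold no read counts. Within a library the deposited FPKM is TPM times a constant. It was used as an alternative and, with the deposited coverage signal, for depth. Entries of 1 gene identifier were summed (113 to 142 identifiers per library had several), and symbols for 24462 of 24532 came from the RefSeq table of GRCm38.p6. No mitochondrial gene was listed.

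Testing was limited to genes at 1 TPM or more in 3 or more libraries, as log2(TPM + 0.5), which draws fold changes of low genes toward 0, with limma 3.58.1 in R 4.3.3. The fit had 1 mean per group over all 12 libraries and moderated variances with a trend. In each of 5 comparisons p-values were adjusted over 14488 genes (Benjamini-Hochberg), with calls at an adjusted p under 0.05. Errors are SD beside TPM and SE beside log2 values. The fit was tested on simulated data. Other steps used numpy 2.4.6, matplotlib 3.10.9 and pandas 2.3.3 under Python 3.11.15.

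The genes, lists and alternatives were chosen with earlier results of these data known. Named genes are all genes of the symbol rule, up to 4 called genes of lowest p per list and direction, defining markers, Nr1h4 and Slc51a. Serpinh1, Loxl4, Mmp2, Tgfb1, Bmp7 and Skil were named in part after their values were seen. One gene of the symbol rule and 1 marker gene are counted but not reported by name here. A ranking of genes by likeness to Col4a1 was computed and is not reported. Alternatives were 14 other settings and each of 12 libraries left out in turn. Replicate numbers recur in the groups, but deviations of same-numbered libraries correlated from -0.0748 to 0.0829 over 18 pairs, so they were not treated as pairs.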

Additional observations from a re-analysis of the deposited data

Results flagged for a closer look

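The effect of GW4064 differed between genotypes by the interaction test for 3 of 43 matrix genes and 11 genes of the other lists. Over all 14488 genes, 3.19% were called (1.47% higher and 1.72% lower). Calls were made for 1 of 28 collagen processing, 1 of 12 further basement membrane and 1 of 18 turnover genes. Of 22 matrix receptors, 2 were called higher and 1 lower. Markers gave 2 of 10 for fibroblasts and pericytes, 1 of 10 for endothelium, 1 of 8 for podocytes and 1 of 5 for macrophages. The remaining lists had 0 called. All values are the log2 effect of GW4064 in the knockout minus that in wild type, from limma with adjusted p under 0.05. Among the collagen and laminin genes the value was 1.01 for Col8a1, 0.32 for Lamb2 and -0.42 for Lama1. Among collagen-modifying, basement membrane and turnover genes it was 1.30 for the cross-linking enzyme Loxl4, 0.57 for Tinagl1 and 0.63 for the plasminogen activator Plat. Matrix receptors gave 0.33 for Sdc4, 0.41 for the laminin receptor subunit Itga3 and -0.54 for the laminin receptor subunit Itga6. Cell type markers gave 0.92 for Pdgfra, 0.53 for Gsn, 0.50 for Synpo, 0.35 for Plvap and -0.29 for Csf1r. All 14 rest on 3 libraries per group, and the interaction calls over all genes fell to 207 when the fat marker score was added as a covariate and to 220 without wild-type GW4064 replicate 1.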

How the results depend on the processing

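Of the members called, 16 of 22 (knockout against wild type on vehicle), 15 of 23 (under GW4064), 2 of 3 (GW4064 in wild type, Lama1 and Col8a1) and 0 of 3 (interaction) kept their call under every alternative, and no called member changed sign. The counts that follow include Col6a6. Leaving out each library in turn gave 17 to 24 and 18 to 24 members in the genotype comparisons, 2 to 5 for the agonist in wild type, 0 for it in the knockout and 1 to 5 for the interaction. The agonist in wild type gave 7 members with array weights and 2 when the fat score was a covariate, and the interaction then gave 0. The replicate numbers do not pair the libraries, and with the replicate block the counts were 22, 25, 4, 0 and 3 in the order above.

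Adding Col15a1 and Col18a1 to the basement membrane sum raised its ratio to the fibrillar sum to 7.12 in knockout on GW4064, 6.26 in knockout on vehicle, 5.06 in wild type on GW4064 and 5.34 in wild type on vehicle, and geometric means gave 2.01, 1.78, 1.34 and 1.46. Over all genes, leaving out 1 library gave 913 to 1899 calls for knockout against wild type on vehicle and 337 to 768 for GW4064 in wild type, in place of 1872 and 696. Median-of-ratios scaling gave 458 higher and 226 lower genes for GW4064 in wild type, in place of 360 and 336, and 138 higher and 362 lower for the interaction, in place of 213 and 249. Depth limits genes near 1 TPM, such as Col6a6, Col7a1 and Col20a1, and no read counts were used.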
